A study of Homo sapiens with 6 samples.

Results

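The polyamine synthesis and turnover genes were examined as a set of 10, ODC1, AMD1, SRM, SMS, SAT1, OAZ1, OAZ2, AZIN1, PAOX and SMOX, taken by symbol from a table of 25545 genes. All 10 were found in the table. The samples were BT-549 cells, an established triple-negative breast cancer (TNBC) line, transfected for 48 h with a control siRNA (CsiRNA) or with an siRNA against the long noncoding RNA NEAT1 (NEAT1siRNA), with 3 libraries in each group. The sample titles also carry the prefix "tet", as used for inducible lines, and the labels give no inducing agent, so any such construct would be shared by both groups. Each group holds a single siRNA, so loss of NEAT1 and any other effect of that siRNA cannot be told apart. The 3 libraries of a group came from cultures grown in triplicate, and the p-values measure the spread between such cultures of 1 line.

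Polyamines are small positively charged molecules that bind nucleic acids and are needed for growth and translation. Putrescine is made from ornithine by ornithine decarboxylase (ODC1), and aminopropyl groups supplied through S-adenosylmethionine decarboxylase (AMD1) turn it into spermidine (by SRM) and spermine (by SMS). Antizymes (OAZ1, OAZ2) bind ODC1 and send it to the proteasome, the antizyme inhibitor (AZIN1) binds the antizymes, and turnover runs through acetylation by SAT1, oxidation of the acetylated forms by PAOX, and direct oxidation of spermine by SMOX. In tumour cells ODC1 is a textbook MYC target, and much of the pathway is set after transcription, which mRNA levels do not show.

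Of the 10 genes, SAT1, which marks spermidine and spermine for export or oxidation, was the only one that changed past the test, and it was downregulated in NEAT1siRNA cells to 70.9% of its CsiRNA level. The transcripts of the 4 synthetic enzymes lay between 86.4% (ODC1) and 96.3% (SMS) of their CsiRNA means, and none passed the test. The antizyme OAZ1 stood at 109% of its CsiRNA mean and did not pass the test as the values were deposited. Thus, 1 of the 9 genes tested was lower and 0 were higher, at an adjusted p under 0.05 by limma. Among all 10721 genes tested, 8.98% were lower and 4.99% were higher by the same rule, beside which 1 of 9 is 11.1%. These are 963 genes lower and 535 higher, a split that became 954 and 1158 with each library centred on its median, and 1109 and 1082 with quantile normalization. The share of lower genes also moved when a library was left out. It was 3.57% without CsiRNA replicate 1, where 1 of the 9 was lower, and 3.96% without NEAT1siRNA replicate 3, where 1 was. Without NEAT1siRNA replicate 2 it was 14.8%, with 2 of the 9 lower. At an unadjusted p under 0.05, 2 of the 9 passed, SAT1 and ODC1, against 27.4% of all genes tested. The median log2 fold change was -0.059 over the 9 genes and -0.044 over all genes tested. A gene was tested where its mean TPM (transcript abundance scaled for length and library) over the 6 libraries was at least 1, and PAOX, with a mean of 0.546, was not. Log2 fold changes are differences in log2(TPM + 1), which understate those of low genes.

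Silencing was checked on NEAT1 itself, which was measured at 13.4, 7.68 and 10.8 TPM in the CsiRNA replicates and at 4.36, 2.96 and 2.73 TPM in the NEAT1siRNA replicates, or 31.5% of the CsiRNA mean (log2 fold change -1.41, SE 0.14, adjusted p = 1.21e-07 by limma). Mesenchymal genes of the line were present, with VIM at 1046 TPM in CsiRNA cells, whereas ESR1 was listed at 0 in all 6 libraries and PGR, EPCAM, CDH1, PTPRC, PECAM1 and ALB had group means of 0.124 TPM or less. ERBB2 was measured at 6.19 ± 0.212 TPM in CsiRNA cells (SD, n = 3). Reads per library, recovered from the deposited values, ranged from 15787858 to 20342767. Libraries also differed in base composition: across 10106 genes, the correlation (Spearman's rho) of GC content with a gene's deviation from its group mean ranged from -0.73 in NEAT1siRNA replicate 2 to 0.68 in NEAT1siRNA replicate 1. Genes are not independent replicates, and the value is a description of the library.

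SAT1, spermidine/spermine N1-acetyltransferase, lies on the X chromosome (GRCh38, chrX:23783173-23786210, plus strand). It was measured at 35.9, 39.2 and 34.1 TPM in CsiRNA replicates 1 to 3, and at 26.5, 27.5 and 23.5 TPM in NEAT1siRNA replicates 1 to 3. The highest NEAT1siRNA value lay below the lowest CsiRNA value, a separation in this direction that 19.3% of all genes tested also had. The group means were 36.4 ± 2.61 and 25.8 ± 2.11 TPM (SD, n = 3 each). On the log2 scale the difference was -0.48 (SE 0.09, 95% interval -0.67 to -0.29), with an adjusted p = 0.00102 by limma. It was the 289th smallest p-value among the 10721 genes. The depth behind these values was 696 to 816 reads per library in CsiRNA cells and 458 to 607 in NEAT1siRNA cells. In bulk RNA, fewer cells with SAT1 mRNA and less of it per cell cannot be told apart. SAT1 passed the threshold in all 17 alternative settings, with log2 fold changes from -0.53 to -0.42 and adjusted p from 3.17e-09 to 0.0380 by limma, and it was -0.51 with the trend on GC content and length removed.

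**Figure D1:**
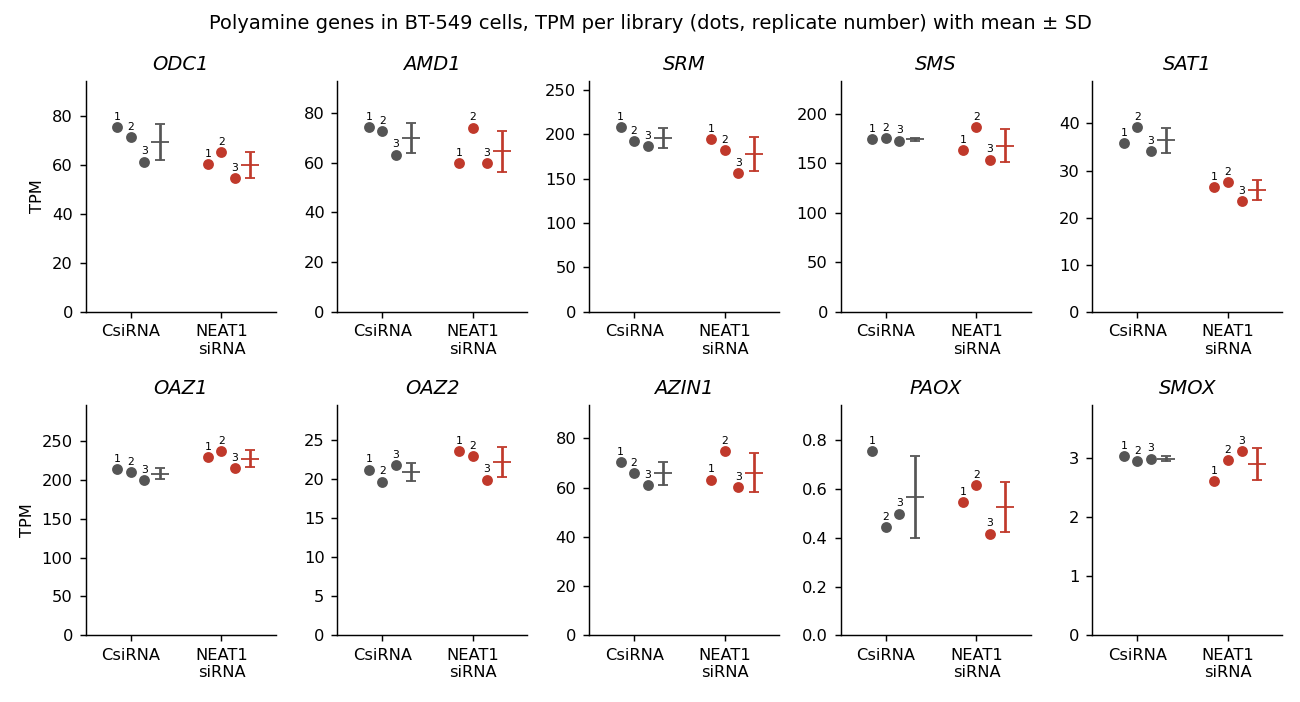
TPM of the 10 polyamine genes in each library (y axis, linear and starting at 0, scaled per gene), with CsiRNA replicates in grey and NEAT1siRNA replicates in red, numbered by replicate, and the mean ± SD of each group beside the dots. The NEAT1siRNA dots of SAT1 (23.5 to 27.5 TPM) lie below its CsiRNA dots (34.1 to 39.2 TPM) and those of OAZ1 above, while the dots of the other genes overlap between groups.

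The sequence before the SAT1 start is shown because SAT1 is the gene that fell. It runs from 250 bases before to 50 bases after the annotated start, in the plus strand of GRCh38.p14 at chrX:23782923-23783222 (RefSeq), and is printed 5′ to 3′ with nothing in capitals.

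SAT1: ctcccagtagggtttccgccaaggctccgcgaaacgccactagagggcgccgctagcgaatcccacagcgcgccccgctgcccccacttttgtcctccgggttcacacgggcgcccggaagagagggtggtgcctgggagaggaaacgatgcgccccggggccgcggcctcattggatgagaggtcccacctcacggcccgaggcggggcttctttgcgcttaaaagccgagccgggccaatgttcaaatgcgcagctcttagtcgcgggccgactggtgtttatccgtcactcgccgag

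It holds no match to the E-box CACGTG, the palindrome that MYC and related factors bind, nor to TATGACTAA, the polyamine-responsive element described for SAT1, searched on both strands. The search covered only 250 bases before and 50 bases after the start. It cannot tell whether either motif lies farther from SAT1. Over 35116 promoter windows of the same length, 7.26% held the E-box and 0.0997% the polyamine-responsive element. There were 10 windows for 7 of the genes. Windows on chromosome 8, where AZIN1 lies, were left out, and PAOX and SMOX had none. An E-box was found in 2 of the 10 windows, 1 of ODC1 and 1 of SRM, and the polyamine-responsive element in 0. The windows are not independent, since AMD1 and ODC1 have more than 1 each and windows of AMD1 overlap. The other ODC1 window (chr2:10448278-10448577), at the outer start of the gene, held no E-box.

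These 2 windows are shown because they are the ones among the 10 searched that hold an E-box. Both are printed 5′ to 3′ on the minus strand, with E-boxes in capitals. That of ODC1 (chr2:10447963-10448262) has E-boxes starting at -29 and at 6 relative to an annotated start that lies inside the gene, and that of SRM (chr1:11059969-11060268) has 1 at -199.

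ODC1: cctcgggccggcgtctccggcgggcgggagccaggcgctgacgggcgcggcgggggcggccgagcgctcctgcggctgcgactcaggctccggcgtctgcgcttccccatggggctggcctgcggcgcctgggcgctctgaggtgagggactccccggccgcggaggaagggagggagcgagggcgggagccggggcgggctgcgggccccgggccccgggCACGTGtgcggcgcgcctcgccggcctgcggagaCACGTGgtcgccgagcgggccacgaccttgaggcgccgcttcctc

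SRM: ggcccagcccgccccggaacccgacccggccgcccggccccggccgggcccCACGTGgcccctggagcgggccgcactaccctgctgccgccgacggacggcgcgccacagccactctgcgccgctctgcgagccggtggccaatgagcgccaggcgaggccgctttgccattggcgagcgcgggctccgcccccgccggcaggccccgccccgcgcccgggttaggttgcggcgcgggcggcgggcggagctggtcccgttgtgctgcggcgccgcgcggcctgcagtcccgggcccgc

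A match is a description of the letters and not a measured binding site. MYC itself was measured at 36.7 ± 1.72 TPM in CsiRNA cells and 27.1 ± 1.10 TPM in NEAT1siRNA cells (SD, n = 3 each), and differed by -0.43 on the log2 scale (SE 0.09, adjusted p = 0.00197 by limma).

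ODC1, the enzyme that makes putrescine and the usual entry point of the pathway, had CsiRNA values of 75.5, 71.5 and 61.4 TPM and NEAT1siRNA values of 60.3, 65.1 and 54.7 TPM. CsiRNA replicate 3 lay within the NEAT1siRNA range, so the groups overlapped. The means were 69.5 ± 7.27 and 60.1 ± 5.23 TPM (SD, n = 3 each). The log2 fold change was -0.21 (SE 0.10, 95% interval -0.40 to -0.0068), with an unadjusted p = 0.0431 and an adjusted p = 0.165 by limma. ODC1 thus did not pass the test over all genes, although 2778 to 3820 reads per library stood behind it. It passed when CsiRNA replicate 3 was left out (-0.29, adjusted p = 0.0406 by limma) and when NEAT1siRNA replicate 2 was left out (-0.26, adjusted p = 0.0238 by limma).

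SRM, the spermidine synthase, was the most abundant of the synthetic transcripts in CsiRNA cells. Its values were 208, 192 and 187 TPM with CsiRNA and 195, 182 and 156 TPM with NEAT1siRNA, and the ranges overlapped. The log2 fold change of -0.14 (SE 0.09, 95% interval -0.33 to 0.045) had an adjusted p = 0.330 by limma.

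AMD1, which supplies the aminopropyl donor, had values of 74.3, 72.7 and 63.2 TPM with CsiRNA and 59.7, 74.1 and 59.9 TPM with NEAT1siRNA. NEAT1siRNA replicate 2 lay near the top of the CsiRNA range, while the other two replicates lay below all CsiRNA values. The log2 fold change was -0.12 (SE 0.10, 95% interval -0.32 to 0.083, adjusted p = 0.469 by limma). AMD1 and AZIN1 had the lowest GC content of the 10 genes, 37.9% and 38.0% of the transcript. Both were highest within their group in NEAT1siRNA replicate 2, the library with the strongest shift towards low-GC genes. So were ODC1, SMS, SAT1, OAZ1 and PAOX, but not SRM, OAZ2 and SMOX. A link of these values to base composition was not tested. With the GC and length trend removed, AMD1 stood at -0.17, still not past the threshold.

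SMS, the spermine synthase, was measured at 174, 176 and 173 TPM in CsiRNA cells and at 163, 186 and 154 TPM in NEAT1siRNA cells. The CsiRNA replicates were close together (174 ± 1.45 TPM) and the NEAT1siRNA replicates spread to both sides of them (168 ± 16.8 TPM). The log2 fold change was -0.059 (SE 0.09, 95% interval -0.24 to 0.12, adjusted p = 0.718 by limma). For all 4 synthetic enzymes the point estimate was negative, and the intervals of SRM, AMD1 and SMS include 0. The median over all genes tested was negative too, at -0.044, and SMS turned to 0.0025 without NEAT1siRNA replicate 3.

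**Figure D2:**
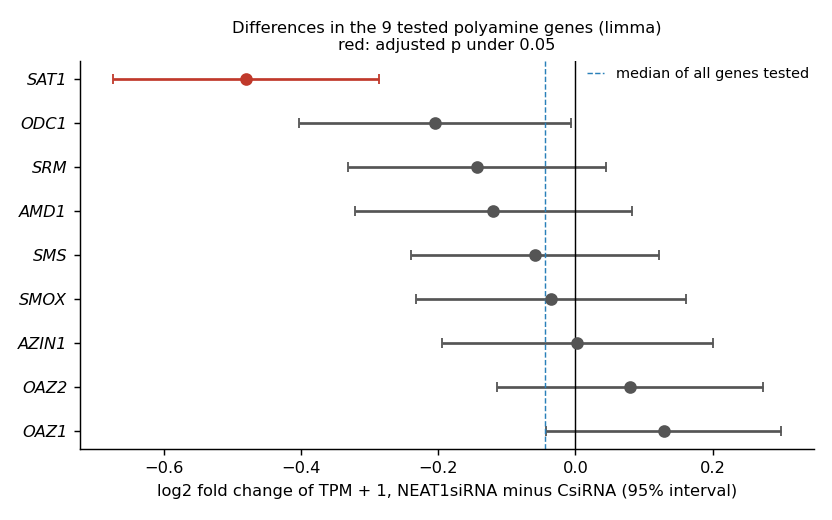
Log2 fold change of TPM + 1, NEAT1siRNA minus CsiRNA (x axis), for the 9 tested genes, with 95% intervals from limma (3 libraries a group), red where the adjusted p is under 0.05. SAT1, at -0.48, is the only red point, OAZ1 has the highest value at 0.13, and the dashed line is the median of all genes tested, -0.044.

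The antizymes are made only when the ribosome shifts reading frame by 1 base, a step that polyamines favour, so that their mRNA levels are a capacity rather than a protein output. The shift sites of OAZ1 and OAZ2 are shown because this is the feature by which these transcripts answer to polyamines. They were read from GRCh38 at the 1-base gap that the GENCODE annotation leaves between coding exons of each gene, chr19:2271413-2271473 on the plus strand for OAZ1 and chr15:64691485-64691545 on the minus strand for OAZ2. The capitals mark the last codon of the initial frame and the stop codon that the shift avoids.

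OAZ1: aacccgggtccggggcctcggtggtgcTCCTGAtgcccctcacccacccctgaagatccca

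OAZ2: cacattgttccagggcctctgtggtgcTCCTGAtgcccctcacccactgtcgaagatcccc

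The 61-base windows shared 49 identical bases, including all of the capitals.

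OAZ1, antizyme 1, was the most abundant transcript of the set in both groups. It had values of 213, 210 and 199 TPM with CsiRNA and of 228, 237 and 215 TPM with NEAT1siRNA. All 3 NEAT1siRNA values lay above the CsiRNA range, as they did for 11% of all genes tested. The means were 207 ± 7.17 and 227 ± 10.9 TPM (SD, n = 3 each). The log2 fold change was 0.13 (SE 0.08, 95% interval -0.043 to 0.30), and the adjusted p = 0.338 by limma did not pass. The call depended on scaling: OAZ1 passed with quantile normalization (0.17, adjusted p = 0.0213 by limma), with each library centred on its median (0.19, adjusted p = 0.0380 by limma), with TPM rescaled without 4 abundant short noncoding RNAs (0.16, adjusted p = 0.0409 by limma), and with voom on recovered reads (0.18, adjusted p = 0.0362 by limma). These 4 RNAs took 64.4% to 68.1% of the TPM of a library. They are 299 to 333 bases long and TPM is scaled for length, so this is not their share of the reads. In the 13 other settings OAZ1 did not pass. JSRP1, which overlaps OAZ1 on the other strand, was listed at a mean of 0 TPM. GENCODE also has protein-coding entries without a symbol that overlap exons of SAT1, OAZ1, AZIN1 and PAOX on the same strand. These had no values of their own here, and their part in the reads was not examined.

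OAZ2, a less abundant antizyme, had values of 21.2, 19.7 and 21.8 TPM with CsiRNA and 23.6, 23.0 and 19.9 TPM with NEAT1siRNA. Its ranges overlapped, and the log2 fold change was 0.079 (SE 0.09, 95% interval -0.12 to 0.27, adjusted p = 0.640 by limma). AZIN1, an inactive relative of ODC1 that frees it from antizymes, was measured at 70.3, 65.9 and 61.0 TPM with CsiRNA and at 63.2, 74.9 and 60.0 TPM with NEAT1siRNA. Both the lowest and the highest value of AZIN1 were in the NEAT1siRNA group. Its log2 fold change was 0.0029 (SE 0.10, 95% interval -0.19 to 0.20, adjusted p = 0.991 by limma), with 5345 to 7524 reads per library.

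The oxidases were low in BT-549 cells, where SAT1 was the most abundant of the 3 turnover enzymes. SMOX, the spermine oxidase, had values of 3.03, 2.95 and 2.99 TPM with CsiRNA and of 2.60, 2.97 and 3.12 TPM with NEAT1siRNA, from 123 to 162 reads per library. The NEAT1siRNA values spread to both sides of the CsiRNA values, and the log2 fold change was -0.036 (SE 0.10, 95% interval -0.23 to 0.16, adjusted p = 0.854 by limma). PAOX, the peroxisomal oxidase of acetylated polyamines, had 0.755, 0.442 and 0.499 TPM with CsiRNA and 0.546, 0.615 and 0.417 TPM with NEAT1siRNA, which rest on 27, 16 and 22 reads and on 21, 25 and 15 reads. Its ranges overlapped, and with no filter on TPM the log2 fold change was -0.034 (SE 0.09, 95% interval -0.24 to 0.17, adjusted p = 0.870 by limma).

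TPM is scaled by transcript length, so levels can be set in order within a group. In CsiRNA cells OAZ1 was followed by SRM, whose ranges overlapped, and then by SMS, whose range met neither neighbour. AMD1, ODC1 and AZIN1 followed and overlapped one another, at 61.0 to 75.5 TPM. SAT1, OAZ2, SMOX and PAOX came below in that order without overlap between neighbours. In NEAT1siRNA cells the OAZ1 range no longer met that of SRM, SRM overlapped SMS, and AZIN1, AMD1 and ODC1 again overlapped. The SAT1 range (23.5 to 27.5 TPM) there reached down to that of OAZ2 (19.9 to 23.6 TPM), from which it was separate in CsiRNA cells.

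Ratios between members within a library do not depend on how the library is scaled, and 5 were set down as a description, with no test. The ratio of ODC1 to its antizyme OAZ1 was 0.308 to 0.354 in CsiRNA cells and 0.254 to 0.275 in NEAT1siRNA cells, so the ranges did not overlap. Of the ratios of ODC1 to each of 10707 other tested genes, 35.6% lay below the CsiRNA range in all NEAT1siRNA libraries and 5.36% above it, so such a separation downwards is common for ODC1. As log2 ratios these were -1.50, -1.55 and -1.70 against -1.92, -1.86 and -1.98, a difference in means of -0.34. ODC1 relative to AZIN1 was likewise lower in all NEAT1siRNA libraries, with log2 ratios of 0.10, 0.12 and 0.010 against -0.067, -0.20 and -0.13, a difference in means of -0.21. By contrast, ODC1 relative to SAT1 was higher. Its log2 ratios were 1.07, 0.87 and 0.85 in CsiRNA cells and 1.19, 1.24 and 1.22 in NEAT1siRNA cells. Differences between the log2 fold changes were also taken with the GC and length trend removed. They were -0.13 for ODC1 and AZIN1, -0.30 for ODC1 and OAZ1 and 0.34 for ODC1 and SAT1. GC content and length were removed jointly, and the part of base composition alone was not tested. The ratios of SMS to SRM and of AMD1 to ODC1 overlapped between the groups, with differences in mean log2 ratio of 0.085 and 0.087.

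**Figure D3:**
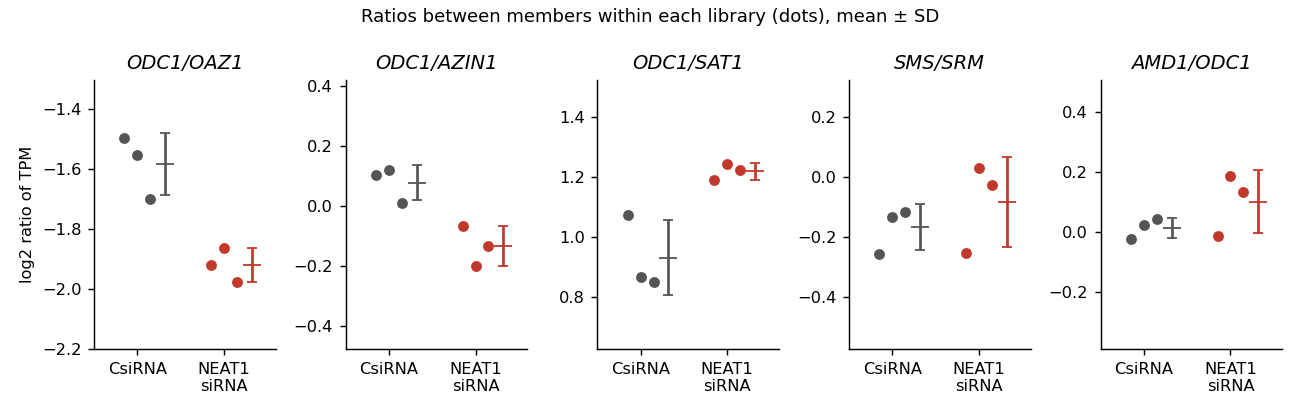
Log2 ratio of TPM between pairs of polyamine genes (y axis, same span in each panel) for each library (dots) with the mean ± SD of CsiRNA (grey) and NEAT1siRNA (red), n = 3 each. The groups are apart for ODC1/OAZ1 (difference in means -0.34), ODC1/AZIN1 (-0.21) and ODC1/SAT1 (0.29), and overlap for SMS/SRM and AMD1/ODC1.

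**Figure D4:**
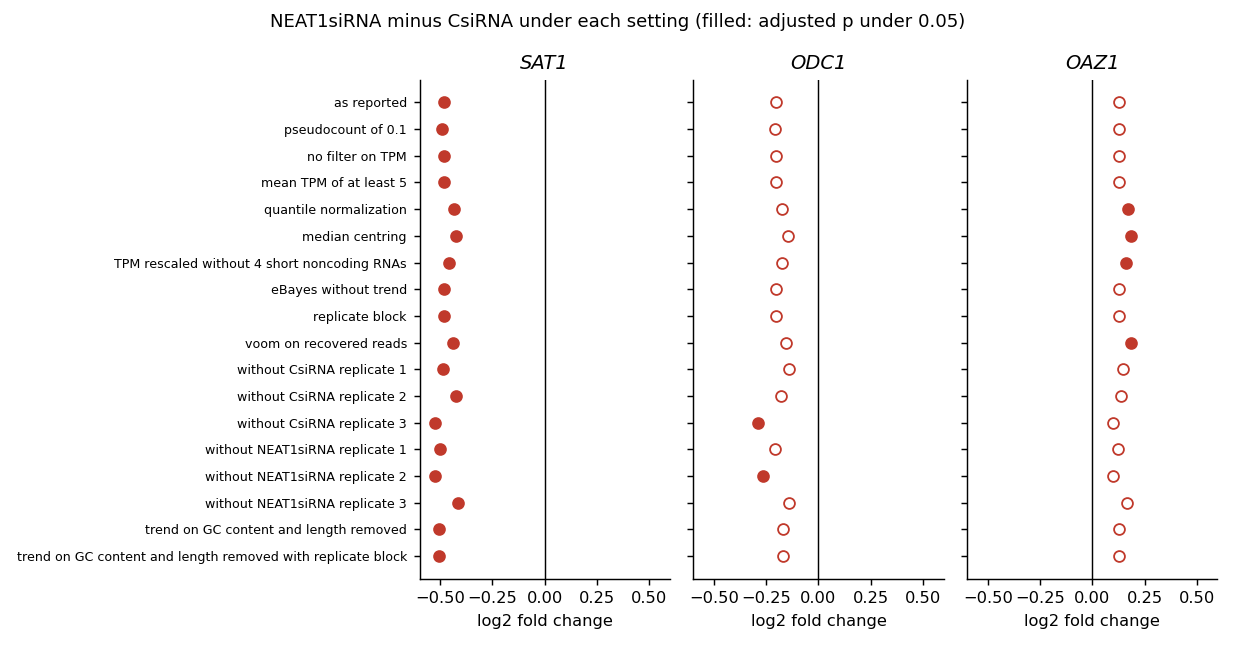
Log2 fold change, NEAT1siRNA minus CsiRNA (x axis), of SAT1, ODC1 and OAZ1 as reported and under 17 alternative settings (y axis), with filled dots where the adjusted p is under 0.05. SAT1 is filled throughout, ODC1 is filled when CsiRNA replicate 3 or NEAT1siRNA replicate 2 is left out, and OAZ1 is filled in 4 settings, all of which change the scaling.

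The genes around the pathway were taken as 5 lists with 44 genes, of which 30 were tested. Among the 30, 3 were higher and 1 was lower, against 4.99% and 8.98% of all genes tested, and 26 did not pass. The median log2 fold change of the 30 was -0.041, close to that of all genes. Each of the 4 genes that passed belonged to a different list.

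For the supply of ornithine and arginine, 6 of 11 listed genes were tested and 1 was higher. This was ASS1, argininosuccinate synthase, which makes the precursor of arginine from citrulline. ASS1 had 13.2, 11.8 and 13.4 TPM with CsiRNA and 22.6, 22.0 and 22.0 TPM with NEAT1siRNA, and the groups were far apart. Its log2 fold change was 0.75 (SE 0.09, adjusted p = 2.92e-06 by limma), and it passed in all 17 alternative settings. Reads from processed copies of ASS1 were not examined. ASL, the enzyme that follows ASS1, was measured at 1.12 and 1.06 TPM. ARG1 was listed at 0 in all libraries and ARG2 had group means of 0.365 and 0.280 TPM, so neither arginase was tested. The arginine transporter SLC7A1 (log2 fold change -0.25, adjusted p = 0.0673 by limma) and the mitochondrial ornithine carrier SLC25A15 (-0.28, adjusted p = 0.0552 by limma) did not pass. Nor did ALDH18A1 (-0.16, adjusted p = 0.246 by limma) or OAT (0.22, adjusted p = 0.149 by limma). NEAT1siRNA values of SLC7A1, SLC25A15 and ALDH18A1 lay below the CsiRNA range, as for 19.3% of all genes tested. Those of OAT lay above it, as for 11%. SLC7A1 and SLC25A15 were near the threshold, SLC7A1 passing in 8 and SLC25A15 in 10 of the 17 alternative settings.

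Of 11 genes linked to polyamine transport, 7 were tested and 1 was higher. SLC12A8, a member of the cation-chloride cotransporter family that has been linked to polyamine uptake, had 1.12, 1.05 and 1.18 TPM with CsiRNA and 2.50, 2.19 and 2.37 TPM with NEAT1siRNA, on 74 to 187 reads per library. All NEAT1siRNA values were above the CsiRNA range, and the log2 fold change was 0.66 (SE 0.10, adjusted p = 3.80e-05 by limma), past the threshold in all 16 settings that tested it. The pseudocount lowers this value for so low a gene: the log2 fold change of SLC12A8 was 1.01 with a pseudocount of 0.1 and 1.11 with voom on recovered reads, where ASS1 stood at 0.79 and 0.84. ATP13A3, a P-type ATPase that carries polyamines into the cell, did not pass (-0.25, adjusted p = 0.0935 by limma), nor did the lysosomal ATP13A2 (-0.18, adjusted p = 0.240 by limma). ATP13A3 passed in 6 of 17 alternative settings.

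In the methionine cycle and the salvage of methylthioadenosine, which returns the by-product of SRM and SMS to methionine, 10 of 12 listed genes were tested and 1 was higher. ADI1, a dioxygenase of the salvage route, had means of 7.69 ± 0.558 TPM with CsiRNA and 9.60 ± 0.475 TPM with NEAT1siRNA (SD, n = 3 each), or 0.29 higher on the log2 scale (SE 0.09, adjusted p = 0.0408 by limma). This call was weak, since it was lost in 7 of 17 settings, those that left out any 1 of the 6 libraries and the one with no filter on TPM. MTAP, the phosphorylase that opens the salvage route, was present at 22.0 and 21.0 TPM and did not pass (-0.067, adjusted p = 0.701 by limma).

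Hypusination is the modification of the translation factor EIF5A that uses spermidine as its substrate. All 5 listed genes were tested and 1 was lower. DOHH, the hydroxylase of the last step, had 2.64, 2.45 and 2.06 TPM with CsiRNA and 1.87, 1.45 and 1.40 TPM with NEAT1siRNA, on 54 to 101 reads per library. Its log2 fold change was -0.40 (SE 0.10, adjusted p = 0.0112 by limma). The call was lost in 3 of 16 settings, when no filter on TPM was set, when CsiRNA replicate 1 was left out and when NEAT1siRNA replicate 3 was left out, with adjusted p up to 0.114 by limma. EIF5A itself stood at 519 ± 8.29 and 533 ± 43.7 TPM (SD, n = 3 each) and did not pass. Of 5 further polyamine enzymes and antizymes, 2 were tested, SAT2 (0.12) and AGMAT (-0.092), and neither passed.

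**Figure D5:**
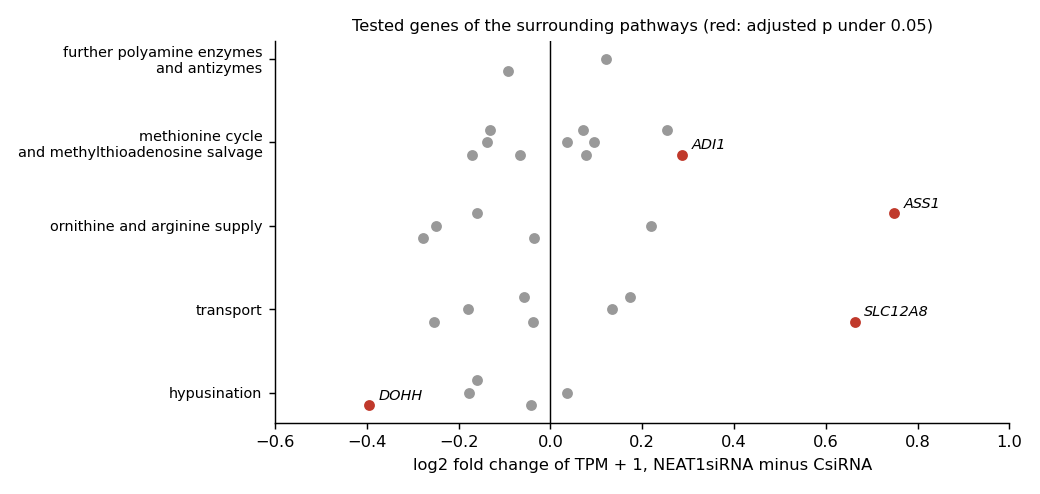
Log2 fold change of TPM + 1, NEAT1siRNA minus CsiRNA (x axis), of the 30 tested genes in 5 lists around polyamine metabolism (y axis), with dots spread vertically within a list for legibility and red where the limma adjusted p is under 0.05. ASS1 (0.75) and SLC12A8 (0.66) lie to the right of the other genes, ADI1 is at 0.29 and DOHH is the red point on the left at -0.40, all on the log2(TPM + 1) scale, which shortens the distance of low genes such as SLC12A8.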

How the data were processed

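The authors prepared stranded mRNA libraries from total RNA, used STAR for alignment to GRCh38, and ran DESeq2 for the comparison; the versions of STAR and DESeq2, the gene counter and the use of strand are not given in the sources used here. The deposited values used were TPM per gene and library (25545 genes, scaled to sum to 1000000 in each library) and the mean normalized count of each gene over the 6 libraries, a signal that the authors deposited with their comparison. The fold changes and p-values of that comparison were not used.

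Log2(TPM + 1) of the 10721 genes whose mean TPM reached 1 was fitted with lmFit and eBayes (with trend) in limma 3.58.1 under R 4.3.3, without a replicate block. Tests were two-sided, p-values were adjusted over all genes tested by the Benjamini-Hochberg method, and SEs are moderated. Reads were recovered from TPM and the mean normalized count. Values above 0 came within 0.05 of a whole number in 99.8% of cases for 5043 genes with a mean count of 5 or less. The share was 98.6% for mean counts of 5 to 50, 71.9% for 50 to 500 and 13.9% above 500. The reason for the fall was not tested. The check thus does not cover genes above 500, and read numbers given for abundant genes, and library totals, are estimates. Correlations of deviations for same replicate numbers were -0.030, 0.25 and -0.11. These values cannot settle whether same-numbered libraries were handled together. Member genes and lists were chosen with earlier results of these data known. Named genes were all members, up to 4 past the threshold in each list, NEAT1 and MYC; other genes were named as examples after their values were seen. Alternatives varied the pseudocount (0.1), filters on TPM (none, 5), scaling, the trend, the replicate block, voom on recovered reads, each library left out and an adjusted p under 0.01. Correction for GC content and length of the transcript (GENCODE, known for 94.3% of the tested genes) was added after seeing the data. GENCODE lists processed copies of AMD1 (5 entries, with AMD1P2 entered more than once), SRM (3), SMS (1) and OAZ1 (1), which were not analysed here. The limma fit was run on simulated reads that held no GC shift between libraries, and the other steps were not. Other computations used Python 3.11.15, numpy 2.4.6, pandas 2.3.3 and matplotlib 3.10.9.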

Additional observations from a re-analysis of the deposited data

How the results depend on the processing

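SAT1, NEAT1, MYC and ASS1 kept their direction and passed the threshold in all 17 settings. The count of polyamine genes higher was 0 as reported and 1 (OAZ1) with quantile normalization, median centring, rescaling without 4 short noncoding RNAs and voom. The count lower was 1 as reported, 1 to 2 with a library left out (ODC1 added without CsiRNA replicate 3 or NEAT1siRNA replicate 2), and 2 with the GC and length trend removed together with the replicate block (SRM added, -0.19, adjusted p = 0.0361 by limma). The replicate block alone left 0 higher and 1 lower among them, with SAT1 at -0.48 and 579 higher and 1061 lower among all genes, and it brought past the threshold SLC7A1 (-0.25, adjusted p = 0.0384 by limma) and SLC25A15 (-0.28, adjusted p = 0.0398 by limma), which were not past it as reported. For the other named genes followed through the settings, the block changed no call. OAT and ALDH18A1 were not followed. Same-numbered libraries did not deviate together in every pair. The direction of 6 genes near 0 turned: AZIN1 was -0.045 with the GC and length trend removed, with or without the block, and ranged from -0.090 (NEAT1siRNA replicate 2 left out) to 0.067 with a library left out, also turning to -0.049 when CsiRNA replicate 3 was dropped. SMOX was 0.0093 with quantile normalization and 0.021 with median centring, and ranged from -0.077 to 0.019 (NEAT1siRNA replicate 1 left out). SMS ranged from -0.14 to 0.0025 (NEAT1siRNA replicate 3 left out), EIF5A from -0.022 to 0.097, AGMAT from -0.23 to 0.017 and ASL from -0.10 to 0.032, with ASL at 0.022 with median centring.

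Among all genes, 535 were higher and 963 lower as reported. The counts were 242 and 263 with no filter, 1082 and 1109 with quantile normalization, 1158 and 954 with median centring, 940 and 1119 with rescaling, 1226 and 1242 with voom, 808 and 1530 with the GC and length trend removed, 877 and 1696 with that and the block, and 276 and 443 at an adjusted p under 0.01. With a library left out they ranged from 376 to 540 and from 383 (without CsiRNA replicate 1) to 1590 (without NEAT1siRNA replicate 2). The share of higher against lower calls thus moves with scaling. The cause was not tested. With 3 libraries a group and 1 cell line, small differences such as those of ODC1 and OAZ1 lie at the limit of the design, and mRNA levels do not give enzyme activity or polyamine content.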
